A study of Arabidopsis thaliana with 44 samples.

Results

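FWA (AT4G25530), SDC (AT2G17690), QQS (AT3G30720) and the transposable element AT3TE51150 are 4 of the 60885 features measured here by RNA sequencing in shoot apices of Arabidopsis thaliana. The members were chosen by name, after earlier results on the ago4, ago9 and ago4ago9 libraries had brought SDC, QQS and AT3TE51150 forward. For that reason their values in those 3 groups are given as a description, with no test. The values in ddm1, ago5, ago5ago9, ago4ago5ago9 and wt21 did not enter that choice and were tested against wt col-0.

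There were 7 mutant groups of 4 libraries each, labelled ddm1, ago4, ago4ago9, ago9, ago4ago5ago9, ago5 and ago5ago9. The wild-type groups, labelled wt21 and wt col-0, had 8 libraries each, which makes 44 libraries in 9 groups. All plants carry the ecotype label Col-0 and were raised on soil in a cycle of 16 h light and 8 h dark until apices were collected at 7 days after germination. Total RNA extracted with TRIzol was sequenced after Smart-seq3, a protocol that copies whole transcripts into cDNA. The labels name no mutant allele and give no meaning for the name wt21. They also do not say whether replicates came from separate plants, how many apices were pooled, or for how many generations ddm1 had been homozygous. The p-values below therefore measure the spread between these samples, which may be technical.

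The cells of a plant keep many transposable elements, and some genes that carry repeats in their promoters, silent through DNA methylation. DDM1 is a chromatin remodeller that lets methyltransferases reach such chromatin and maintains methylation through cell divisions. AGO4 and its relative AGO9 bind small interfering RNAs and guide new methylation to matching sequence in the pathway called RNA-directed DNA methylation, whereas AGO5 is an ARGONAUTE protein best known from reproductive tissue. FWA encodes a homeodomain transcription factor. It is imprinted in the endosperm and silent in the plant body, and plants that lose its methylation express it and flower late. SDC encodes an F-box protein and is silenced by redundant methylation pathways acting on tandem repeats upstream of the gene; its ectopic expression gives small plants with curled leaves. QQS is a gene found only in Arabidopsis thaliana that affects starch and protein content and is known as a natural epiallele, with methylation at its promoter and at neighbouring transposon sequence. AT3TE51150 is named here by its identifier alone.

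The repeats that carry methylation at FWA and SDC lie near the transcription start. The 300 bases before the annotated start of each of the 3 genes are therefore shown on the plus strand, from assembly TAIR10.1 of RefSeq. Sequence after the start lies outside these windows, and repeats there were not counted. Capitals mark stretches of at least 10 bases that occur more than once in the same orientation within the window. Any 10 bases with fewer than 3 different letters, such as runs of T, did not count as repeats. The windows are chr4:13038060-13038359 for FWA, chr2:7681862-7682161 for SDC and chr3:12348747-12349046 for QQS, and all 3 genes lie on the plus strand.
FWA: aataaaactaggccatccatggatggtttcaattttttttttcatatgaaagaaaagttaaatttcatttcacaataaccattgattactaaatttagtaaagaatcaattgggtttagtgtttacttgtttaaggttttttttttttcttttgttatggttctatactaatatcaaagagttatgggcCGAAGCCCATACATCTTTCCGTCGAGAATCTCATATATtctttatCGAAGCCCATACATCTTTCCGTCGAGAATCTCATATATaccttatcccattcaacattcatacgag
SDC: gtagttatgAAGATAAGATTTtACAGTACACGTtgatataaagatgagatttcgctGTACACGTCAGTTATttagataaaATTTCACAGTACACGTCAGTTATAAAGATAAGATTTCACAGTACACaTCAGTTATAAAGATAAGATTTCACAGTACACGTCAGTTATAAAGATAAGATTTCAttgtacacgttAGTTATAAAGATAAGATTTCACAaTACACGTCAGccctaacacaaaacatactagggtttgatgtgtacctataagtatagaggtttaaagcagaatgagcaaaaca
QQS: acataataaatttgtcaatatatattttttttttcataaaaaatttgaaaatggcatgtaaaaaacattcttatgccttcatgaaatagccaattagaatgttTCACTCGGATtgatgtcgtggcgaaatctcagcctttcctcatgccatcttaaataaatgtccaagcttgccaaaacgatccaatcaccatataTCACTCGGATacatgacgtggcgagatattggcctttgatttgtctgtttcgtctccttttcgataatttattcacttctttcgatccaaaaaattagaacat

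The 3 windows differed in how much of them was repeated. In FWA, 76 bases lay in repeats, formed by 2 copies of a run of 38 bases close to the start. Of 27443 protein-coding promoters of the same length, 1.4% held as many repeated bases. In SDC, 172 bases lay in repeats, a number reached by 0.0692% of promoters, and the 14 bases TTATAAAGATAAGA occurred 4 times at a spacing of 32 bases, counted on the plus strand. Those letters were found in 0.0146% of promoters. The QQS window held only a pair of copies of the 10 bases TCACTCGGAT, 20 bases in all, and 29.3% of promoters held as many. Repeats of this kind were present in 30.6% of all promoters, and the median promoter had 0 repeated bases. Cytosines that can be methylated were counted on both strands in the 3 plant contexts, where H stands for any base but G. The CG sites numbered 14 in FWA, 14 in SDC and 20 in QQS, against a median of 12. The CHG sites numbered 3 in FWA, 22 in SDC and 6 in QQS, against a median of 10. The SDC window thus held more CHG sites than the other windows and than the median promoter. The CHH sites numbered 75, 56 and 73 in the same order of genes, against a median of 70. No position for AT3TE51150 is used here.

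Library totals ran from 4474810 to 10620133 estimated counts, with a median of 6644243. Levels are given as CPM, counts scaled to a common library size with trimmed-mean (TMM) factors. The targeted genes were read first as a check of the labels. DDM1 RNA stood at 0.379 ± 0.166 CPM in ddm1, against 12.2 ± 1.99 CPM in wt col-0 (SD; 4 and 8 libraries). AGO4 RNA stood at 0.538 ± 0.531 CPM in ago4 and 0.393 ± 0.378 CPM in ago4ago9 (n = 4 each), against 24.5 ± 2.39 CPM in wt col-0. In 2 labels it went another way. AGO4 was at 21.6 ± 4.28 CPM in the group labelled ago4ago5ago9. Of the libraries labelled ago9, replicates 1 and 2 had 1 and 0 counts of AGO4, whereas replicates 3 and 4 had 97 and 109. AGO5 and AGO9 were too low to check each library, with 22 and 59 counts over all 8 wt col-0 libraries. Wild-type replicates 5 to 8 differed from replicates 1 to 4 in 24.3% of 16133 features tested, and the mutant groups have replicates 1 to 4 only. The meristem genes STM and KNAT1 were present, at 6.77 ± 1.84 and 9.01 ± 2.01 CPM in ddm1 and 5.02 ± 1.06 and 9.11 ± 2.14 CPM in wt col-0. WUS and CLV3, which mark the small stem cell region, were near 0, with 1 and 5 counts in ddm1 and 0 and 13 counts in wt col-0.

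**Figure D1:**
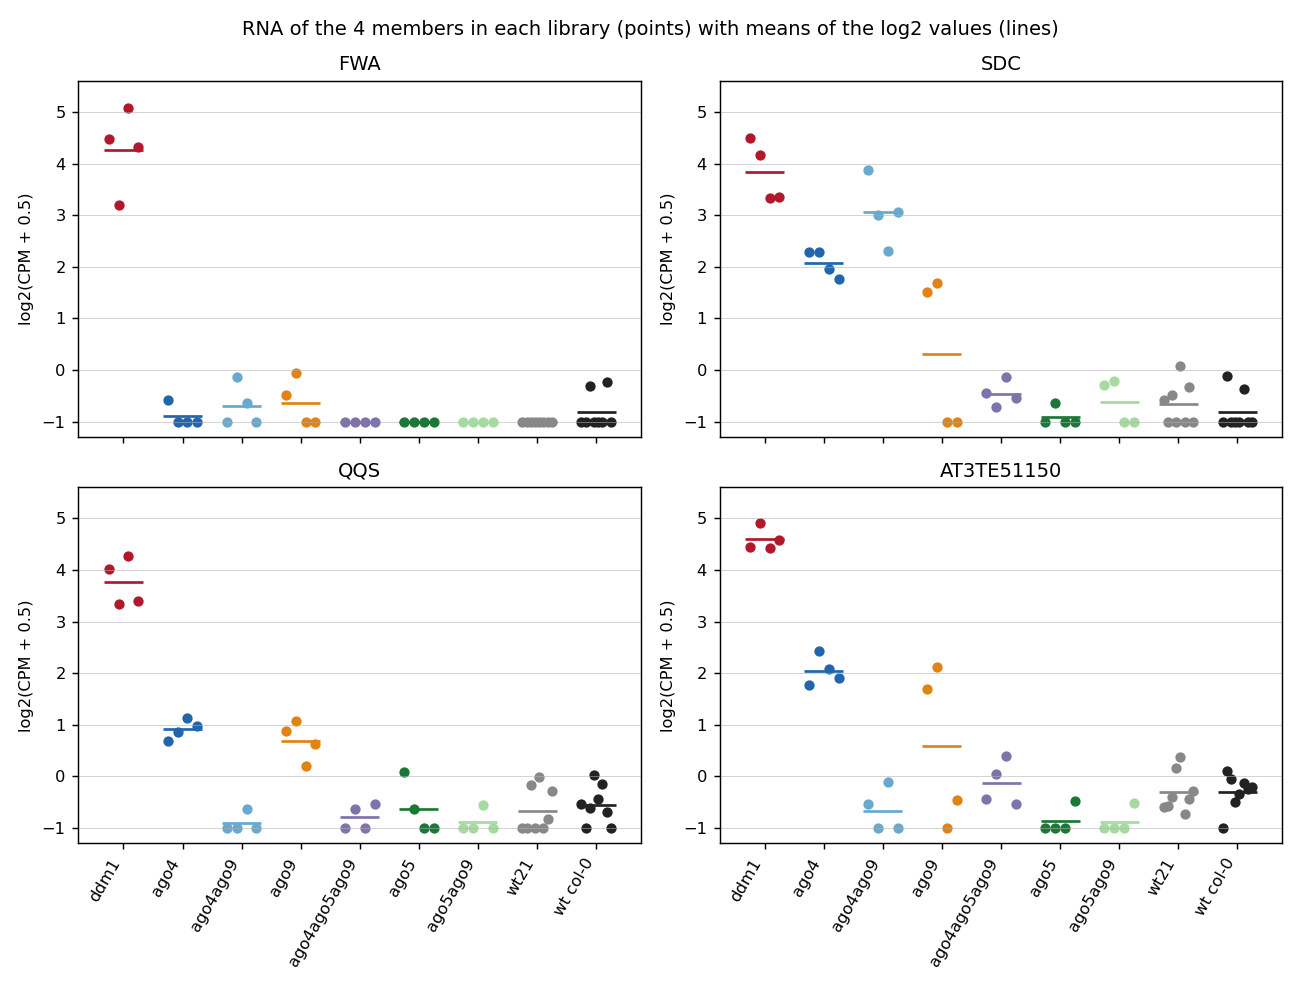
RNA of FWA, SDC, QQS and AT3TE51150 in each of the 44 libraries, as log2(CPM + 0.5), by group; points are libraries and lines are means of the log2 values. All 4 ddm1 libraries lie above every wild-type library in each panel, FWA is high in ddm1 alone, and SDC is also high in ago4 and ago4ago9 while QQS and AT3TE51150 are near the wild-type level in ago4ago9.

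FWA, the flowering repressor, was expressed in ddm1 and was at or close to 0 in all other groups. The ddm1 libraries held 149, 113, 251 and 226 counts, or 21.9, 8.71, 33.5 and 19.4 CPM. In wt col-0, 6 of the 8 libraries held 0 counts and replicates 3 and 7 held 2 and 3. Every ddm1 library lay far above every wild-type library, and the ddm1 libraries themselves spread widely, with replicate 2 lowest and replicate 3 highest. FWA averaged 20.9 ± 10.2 CPM in ddm1, against 0.0821 ± 0.152 CPM in wt col-0 (SD; 4 and 8 libraries). The log2 fold change was 7.84 ± 0.54 (SE; edgeR quasi-likelihood test, Benjamini-Hochberg adjusted p = 2.84e-12). FWA entered the test only because its ddm1 libraries passed the filter on low counts. With no filter it remained called. Since the control total was 5 counts, the size of the change is given better by the ratio of summed counts per library size, 262 with an exact 95% interval of 112 to 809 that covers counting error only. Against wt21, where all 8 libraries held 0 counts, FWA was at least 399-fold higher in ddm1, taking a floor of 3 counts over the group.

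The ARGONAUTE mutants held no comparable amount of FWA RNA. The counts were 1, 0, 0 and 0 in ago4, 0, 3, 1 and 0 in ago4ago9, and 1, 2, 0 and 0 in the libraries labelled ago9. No library labelled ago4ago5ago9, ago5 or ago5ago9 held a count, which allows up to 0.105, 0.138 and 0.120 CPM in these groups (3 counts over the group). FWA RNA above these limits was not detectable at this depth in those groups. The highest level outside ddm1 was 0.454 CPM, in ago9 replicate 2, and the lowest in ddm1 was 8.71 CPM. In order of level, ddm1 stood apart, and the ranges of the other 8 groups overlapped each other.

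SDC, the F-box gene, was expressed in ddm1 and, at lower levels, in ago4ago9, ago4 and part of the ago9 libraries. In ddm1 the libraries held 150, 226, 72 and 114 counts, or 22.03, 17.4, 9.61 and 9.77 CPM. In wt col-0, 6 of 8 libraries held 0 counts, and replicates 2 and 6 held 3 each. The groups did not overlap. SDC averaged 14.7 ± 6.10 CPM in ddm1, against 0.0869 ± 0.166 CPM in wt col-0 (SD; 4 and 8 libraries), with a log2 fold change of 7.14 ± 0.57 (SE; edgeR adjusted p = 8.25e-14). The ratio of summed counts was 166, with an exact 95% interval of 75.8 to 454. In wt21, which also served as a control, SDC had a lowest value of 0, a median of 0.0823 and a highest value of 0.549 CPM.

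The RNA-directed pathway mutants, whose values led to the choice of SDC, gave a graded picture. In ago4ago9 the libraries held 76, 55, 31 and 54 counts (14.1, 7.48, 4.41 and 7.86 CPM; mean 8.48 ± 4.08, SD). In ago4 they held 26, 29, 27 and 21 counts (4.37, 4.38, 3.39 and 2.90 CPM; mean 3.76 ± 0.737, SD). Every library of both groups lay above every wild-type library. As ratios of summed counts, SDC in ago4ago9 was at 93.3 times wt col-0 and in ago4 at 42.7 times. The lowest ago4ago9 library and the highest ago4 library were almost equal, at 4.41 and 4.38 CPM. The ddm1 and ago4ago9 ranges overlapped, with means that differed by a factor of 1.74.

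The libraries labelled ago9 divided for SDC as they did for AGO4. Replicates 1 and 2 held 11 and 12 counts of SDC (2.37 and 2.72 CPM) and at most 1 count of AGO4. Replicates 3 and 4 held 0 counts of SDC, with 97 and 109 counts of AGO4. The group mean of 1.27 ± 1.48 CPM (SD, n = 4) therefore describes none of the 4 libraries. The remaining groups stayed low: SDC had 1, 1, 2 and 2 counts in the libraries labelled ago4ago5ago9, 0, 1, 0 and 0 in ago5, and 2, 3, 0 and 0 in ago5ago9. In order of mean level, SDC ran ddm1, ago4ago9, ago4 and ago9, and then 5 groups with means of at most 0.235 CPM whose ranges overlapped each other.

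**Figure D2:**
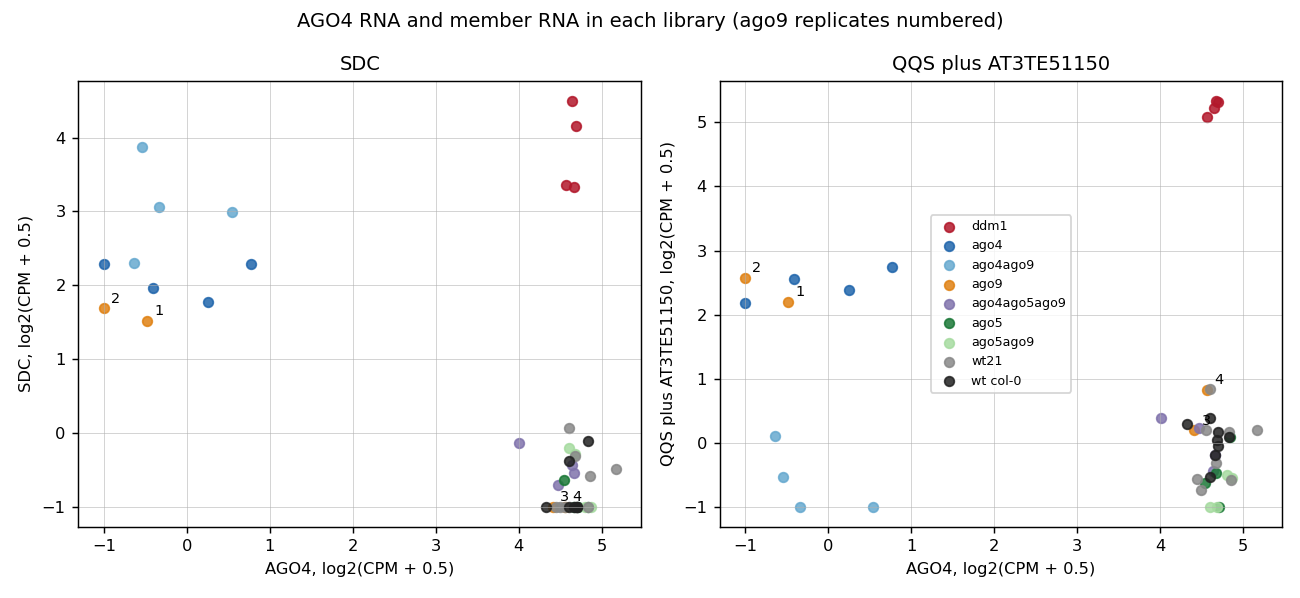
AGO4 RNA on the x axis against SDC RNA (left) or the summed RNA of QQS and AT3TE51150 (right) on the y axis, both as log2(CPM + 0.5); each point is a library, colours are groups, and the 4 libraries labelled ago9 carry their replicate number. Ago9 replicates 1 and 2 lie beside ago4 and replicates 3 and 4 beside wild type, ddm1 lies high at a wild-type AGO4 level, and ago4ago9 is high on the left and low on the right.

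QQS, the starch-related gene, was raised in ddm1 and had low counts elsewhere. Its estimated counts in ddm1 were 107.568, 124.361, 140.68 and 116.984, or 15.8, 9.59, 18.8 and 10.02 CPM. In wt col-0 it had a lowest value of 0, a median of 0.173 and a highest value of 0.512 CPM. The groups did not overlap. QQS averaged 13.5 ± 4.49 CPM in ddm1, against 0.201 ± 0.180 CPM in wt col-0 (SD; 4 and 8 libraries), which is 6.02 ± 0.43 on the log2 scale (SE; edgeR adjusted p = 4.24e-15). QQS, like FWA, entered the test only because its ddm1 libraries passed the filter, and it remained called with no filter. The ratio of summed counts was 66.8 (38.7 to 126).

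AT3TE51150, which the table lists as a transposable element, was also raised in ddm1. Its estimated counts in ddm1 were 144.432, 384.639, 157.32 and 275.016, or 21.2, 29.7, 21.0 and 23.6 CPM. The ddm1 libraries ran in the opposite order from QQS, with replicate 2 highest here and lowest for QQS. In wt col-0 the lowest value was 0, the median 0.359 and the highest 0.567 CPM. Again no ddm1 library came near a wild-type one. The means were 23.9 ± 4.04 CPM in ddm1, against 0.332 ± 0.172 CPM in wt col-0 (SD; 4 and 8 libraries), with a log2 fold change of 6.04 ± 0.40 (SE; edgeR adjusted p = 3.01e-16) and a ratio of summed counts of 70.9 (47.4 to 111).

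The estimated counts of QQS and AT3TE51150 were tied to each other. QQS was not a whole number in 19 of the 44 libraries, and AT3TE51150 was not whole in the same 19. Their sum was whole, within 0.002, in all 44. AT3TE51150 was the only feature (1 of the table) whose value completed QQS to a whole number in each of those 19 libraries. FWA and SDC were whole in all 44 libraries. Such values arise when counting splits 1 read over several features, and how the authors' counting did this is not given in the sources used here. The level of each feature alone is uncertain for that reason, and the sum is given beside it. The share of the sum assigned to AT3TE51150 was 57.3%, 75.6%, 52.8% and 70.2% in the 4 ddm1 libraries and 68.7% to 78.9% in ago4.

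The sum varied less among ddm1 libraries than either part. It came to 252, 509, 298 and 392 counts, or 37.0, 39.3, 39.8 and 33.6 CPM. The coefficient of variation over the 4 libraries was 7.51% for the sum, against 33.1% for QQS and 16.9% for AT3TE51150. The summed pair stood at 37.4 ± 2.81 CPM in ddm1, against 0.534 ± 0.196 CPM in wt col-0 (SD; 4 and 8 libraries), a ratio of summed counts of 69.5 (50.2 to 99.1), and, tested as 1 feature, a log2 difference of 6.08 (edgeR adjusted p = 5.00e-19). FWA and SDC, whose values were whole, had coefficients of variation of 48.7% and 41.5% in the same libraries.

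In the mutants whose values led to the choice of this pair, the pair had its higher levels in ago4 and in part of ago9, and low counts in ago4ago9. The sum held 24, 41, 43 and 34 counts in ago4 (5.08 ± 0.929 CPM, SD), 9.54 times wt col-0 by summed counts. In ago4ago9 it held 1, 0, 4 and 0 counts (0.189 ± 0.269 CPM, SD), at 0.350 times wt col-0. The ago4 libraries all lay above every wild-type library, and the ago4ago9 libraries lay within or below the wild-type range. SDC, by contrast, was higher in ago4ago9 than in ago4 in every library, so the members had different orders across these 2 groups. Whether this difference holds beyond these libraries was not tested.

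The libraries labelled ago9 again fell apart, though less cleanly for QQS. The sum held 19 and 24 counts in replicates 1 and 2 and 3 and 6 counts in replicates 3 and 4, or 4.09, 5.45, 0.643 and 1.27 CPM. Replicates 1 and 2 were at the level of ago4, and replicates 3 and 4 near that of wild type. For QQS alone the 4 libraries had 1.34, 1.59, 0.643 and 1.04 CPM, all above the highest wt col-0 value of 0.512 CPM. AT3TE51150 was at 2.75, 3.86, 0 and 0.230 CPM. In replicates 3 and 4 most of the few counts of the pair were thus assigned to QQS.

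**Figure D3:**
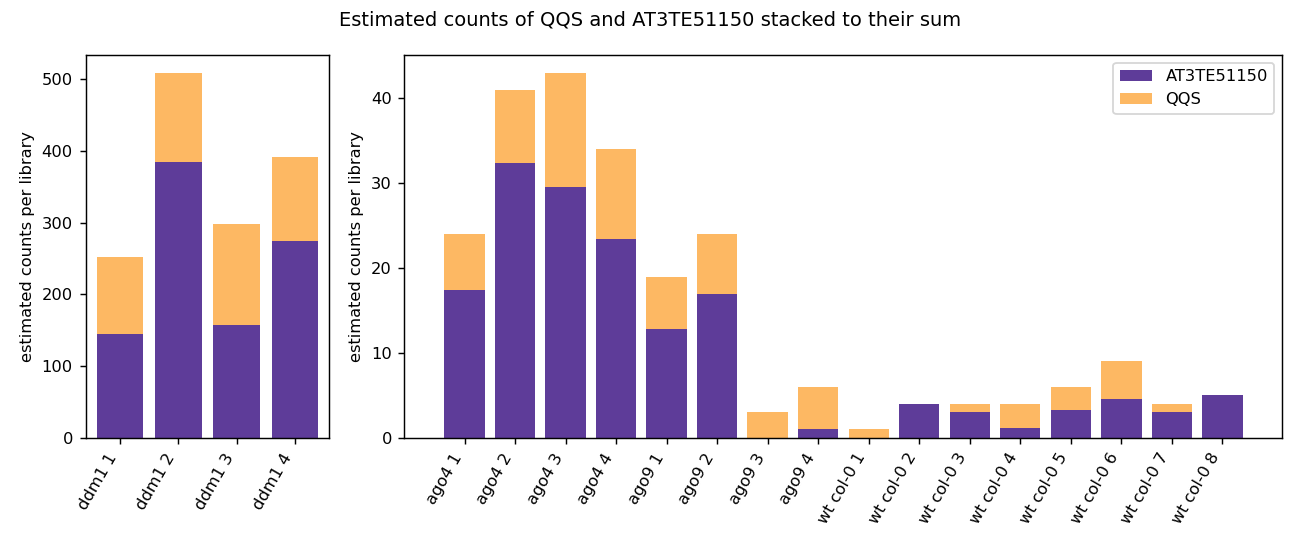
Estimated counts of QQS stacked on those of AT3TE51150 in each library of ddm1 (left) and of ago4, ago9 and wt col-0 (right, with its own scale); the height of a bar is their sum. The division between the 2 features differs from library to library in ddm1, while the sum runs from 252 to 509 counts there and stays at 9 or fewer in wt col-0.

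All 4 members were called higher in ddm1, in a comparison in which 8.7% of 17557 features were called higher, 5.79% lower and 14.5% in either direction. FWA and QQS passed the filter on low counts through their ddm1 libraries alone, so being tested already required a high value there. The 4 members remained called with no filter. How large a share of all features had ddm1 and wild-type ranges that did not overlap was not counted. The separation of the members is therefore a description. With wt col-0 replicates 1 to 4 as the control, the set that matches the mutants by number, the ddm1 log2 fold changes were 7.70 for FWA, 6.71 for SDC, 5.91 for QQS and 6.12 for AT3TE51150, and all 4 were called by edgeR (adjusted p at most 6.74e-09). Of the 8 markers of other tissues, only the leaf gene RBCS1A was called in ddm1 (log2 fold change -0.58 ± 0.17; edgeR adjusted p = 0.0123). LHCB1.1, another leaf gene, had an adjusted p of 0.107 in edgeR, and of 0.000369 (-1.27 ± 0.27) with wt col-0 replicates 1 to 4 as the control. The root markers WOX5 and SCR were tested and not called (0.94 ± 0.40 and -0.31 ± 0.13; edgeR adjusted p = 0.122 and 0.121). With wt col-0 replicates 1 to 4, WOX5 was at 1.40 ± 0.52 (edgeR adjusted p = 0.0561) and SCR at -0.11 ± 0.15 (0.691). PLT1, At2S3, CRA1 and the pollen gene LAT52-like did not pass the filter, so they could not be called. The 8 listed markers of root, seed, pollen and leaf, of which the leaf genes RBCS1A and LHCB1.1 made up nearly all of the counts, summed to 26343 to 39666 CPM in ddm1 and to 34466 to 66025 CPM in wt col-0, ranges that overlap. The seed storage genes At2S3 and CRA1 had 4 and 2 counts in ddm1 and 0 in wt col-0, and the root marker PLT1 was at 0 in both. The same summed markers ran from 74935 to 88564 CPM in ago4 and from 69905 to 84491 CPM in ago9, both above the wt col-0 range. In ago4ago9 they ran from 65663 to 82282 CPM. The wt21 range, 46910 to 75999 CPM, overlapped those of all these mutant groups. The part of these markers in any of these results was not tested. In bulk samples, fewer cells expressing a gene and less RNA per cell cannot be told apart.

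None of the 4 members was called in ago5, ago5ago9, the libraries labelled ago4ago5ago9, or wt21 against wt col-0 (0 of 16 tests with edgeR; also 0 with DESeq2 and with limma voom). Called features made up 0.0911% in ago5, 6.44% in ago5ago9, 0.439% in ago4ago5ago9 and 0.0627% in wt21. With single libraries left out the number of called features ran from 3 to 140 in ago5, 270 to 1433 in ago5ago9, 8 to 311 in ago4ago5ago9 and 1 to 9 in wt21, and no member was called in any of these fits. At an unadjusted p under 0.05 there were 2 cases, both of AT3TE51150. It had 1 count over all ago5ago9 libraries and 24 over all wt col-0 libraries, a ratio of 0.115 (0.00279 to 0.702). In the edgeR model across all features the adjusted p was 0.166. In ago5 it had 1 count as well, a ratio of 0.133 (0.00323 to 0.814), and an edgeR adjusted p of 0.385.

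The intervals show what these depths allow for the other cases. The ratio of summed counts for SDC was 2.29 in ago5ago9 (0.553 to 9.01), 2.40 in ago4ago5ago9 (0.643 to 8.99), 0.531 in ago5 (0.0115 to 4.37) and 2.004 in wt21 (0.679 to 6.60), each over wt col-0. For QQS it was 0.211 in ago5ago9 (0.00498 to 1.41), 0.555 in ago4ago5ago9 (0.101 to 2.02), 0.980 in ago5 (0.233 to 3.17) and 1.01 in wt21 (0.421 to 2.40). Changes of several fold in these low counts could not be told from none. With wt21 as the control in place of wt col-0, ddm1 stood at ratios of 82.8 for SDC (45.9 to 167), 66.2 for QQS (37.5 to 129) and 74.1 for AT3TE51150 (48.2 to 120).

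The genes next to the members did not move with them in ddm1. SLK1, on the left of FWA, had 5.40 ± 0.895 CPM in ddm1, against 5.83 ± 0.854 CPM in wt col-0 (edgeR adjusted p = 0.789). MSH3, a mismatch repair gene that overlaps the end of FWA by 10 bases on the other strand, had 0.901 ± 0.134 CPM in ddm1, against 0.932 ± 0.628 CPM in wt col-0 (edgeR adjusted p = 0.939). Around SDC, AT2G17680 had 0 counts in both groups. AT2G17695 overlaps SDC by 1303 bases on the opposite strand, so reads of the pair could be confused if counting ignored strand, which is not given in the sources used here. It had 7.85 ± 1.35 CPM in ddm1, against 9.95 ± 2.72 CPM in wt col-0, or -0.34 ± 0.19 on the log2 scale (edgeR adjusted p = 0.253). The annotated neighbours of QQS were not analysed here.

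**Figure D4:**
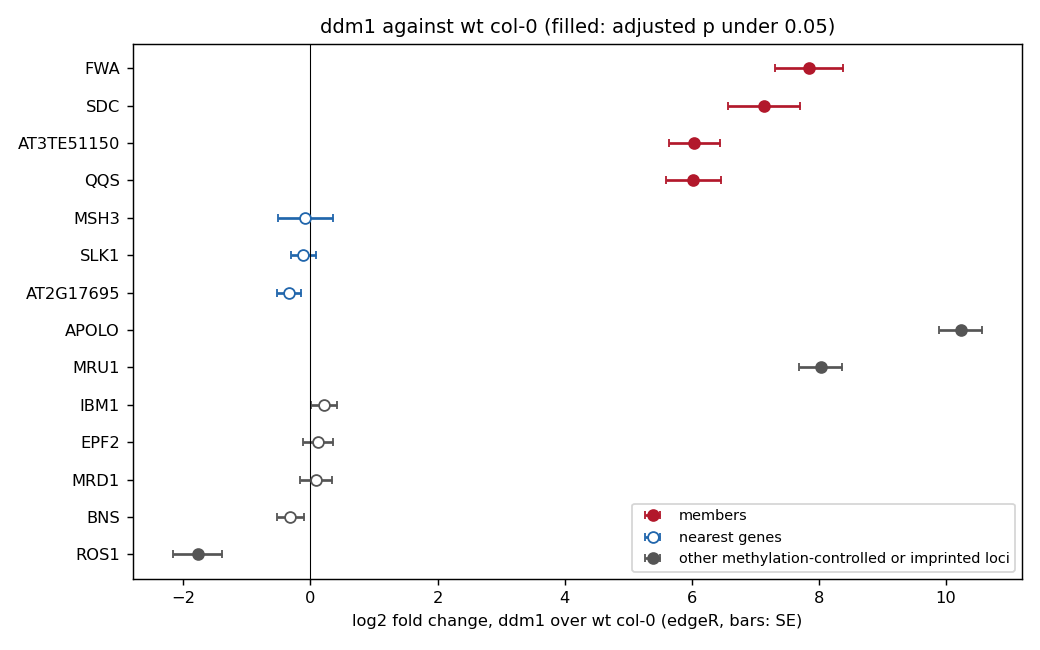
Log2 fold change in ddm1 over wt col-0 (points; bars are SE, edgeR) of the 4 members, their tested neighbouring genes, and other methylation-controlled or imprinted loci that passed the filter; filled points have an adjusted p under 0.05. The members lie between 6.02 and 7.84, the neighbours lie near 0, and of the other loci APOLO and MRU1 are high and ROS1 is low.

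Of 15 other loci known for control by methylation or imprinting, 7 passed the filter, and in ddm1 2 of these were called higher and 1 lower, where 8.7% of all features tested were called higher and 5.79% lower. With so few genes tested, from a list chosen with earlier results of these data known, the count is given as a description. The median log2 fold change of the 7 was 0.12, against 0.01 over all features tested. APOLO, a long noncoding RNA beside the auxin-transport regulator PID, averaged 125 ± 21.99 CPM in ddm1, against 0.0842 ± 0.112 CPM in wt col-0 (log2 fold change 10.23 ± 0.34, SE; edgeR adjusted p = 8.46e-27). It passed the filter on low counts only with its ddm1 libraries, so being tested already required a high value there. MRU1 averaged 157 ± 30.1 CPM in ddm1, against 0.608 ± 0.245 CPM in wt col-0 (8.03 ± 0.34; edgeR adjusted p = 3.92e-23). ROS1, the DNA demethylase whose own transcription depends on methylation at its promoter, averaged 3.13 ± 0.645 CPM in ddm1, against 11.0 ± 3.08 CPM in wt col-0 (-1.77 ± 0.39; edgeR adjusted p = 0.000553). These 3 genes were also called with wt col-0 replicates 1 to 4 as the control, at 10.29, 7.95 and -2.04 for APOLO, MRU1 and ROS1. BNS, IBM1, EPF2 and MRD1 had log2 fold changes of -0.32, 0.21, 0.12 and 0.08 and were not called. The imprinted genes MEA, FIS2, PHE1, HDG3 and HDG9 did not pass the filter.

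Of 31 genes that make and read DNA methylation, 28 were tested in ddm1, 1 was called higher and 2 were called lower. The share of all features called in either direction was 14.5%, so the count is near the background. The list had a median log2 fold change of 0.04 against 0.01 over all features. SUVH5, a histone H3 lysine methyltransferase, stood at 2.51 ± 1.08 CPM in ddm1, against 1.01 ± 0.421 CPM in wt col-0 (1.28 ± 0.38, SE; edgeR adjusted p = 0.0140). CMT2, a methyltransferase of CHH sites, stood at 9.15 ± 1.24 CPM in ddm1, against 16.0 ± 4.001 CPM in wt col-0 (-0.80 ± 0.20; edgeR adjusted p = 0.00293). NRPE1, the largest subunit of RNA polymerase V, stood at 6.49 ± 1.23 CPM in ddm1, against 9.99 ± 2.38 CPM in wt col-0 (-0.62 ± 0.20; edgeR adjusted p = 0.0276). MET1, the enzyme that maintains CG methylation, and CMT3, that of CHG sites, had log2 fold changes of 0.15 and 0.01 and were not called. Against wt21 only 1 of the 28 was called lower in ddm1. With wt col-0 replicates 1 to 4 as the control, CMT2 and NRPE1 remained called lower (-0.999 ± 0.214 and -0.86 ± 0.22), and SUVH5 was not called (1.13 ± 0.47; edgeR adjusted p = 0.0959). The 2 genes called higher there were HDA6, a histone deacetylase (0.60 ± 0.18), and VIM1, a methylated-DNA-binding protein (0.41 ± 0.13), both named after their values were seen.

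The members differed in which features followed them most closely over the 44 libraries, measured by Pearson's r of log2(CPM + 0.5). These values are a description of libraries that share groups, and the highest value of each member is in a ddm1 library. For FWA the closest were 3 transposable elements, AT3TE60425 (r = 0.989), AT3TE67325 (0.988) and AT3TE50650 (0.987), all of which averaged 0 CPM in ago4 and ago4ago9. For SDC the closest was MRU1 (0.946), which averaged 20.0 CPM in ago4ago9, 11.8 CPM in ago4 and 0.608 CPM in wt col-0, the order that SDC also had. It was followed by the elements AT5TE48720 (0.933) and AT4TE09845 (0.931). For QQS the closest were APOLO (0.929), AT3TE51150 (0.921) and AT2TE08110 (0.909). APOLO averaged 2.41 CPM in ago4, 0.876 CPM in ago4ago9 and 0.0842 CPM in wt col-0. For AT3TE51150 the closest were QQS (0.921), APOLO (0.920) and AT3G54730 (0.901). The counts of QQS and AT3TE51150 were tied to each other, so their r is not that of separate measurements. Among the members themselves, r was 0.879 for FWA and QQS, 0.649 for FWA and SDC, and 0.664 for SDC and QQS. Many other features had higher values. Ranked among 17556 other features, QQS came at 882 and SDC at 951 for FWA. For QQS, FWA came at 37 and SDC at 909, and for SDC, FWA came at 51 and QQS at 36.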

How the data were processed

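Bulk RNA was measured in 44 shoot apex libraries. The authors deposited 1 table of estimated counts per gene and transposable element, unscaled and with 1 column per library; 6.26% of its non-zero values are not whole numbers. The submitters' processing notes name TAIR10 and DESeq2 without a role, and the aligner, counter, strand setting and use of molecular identifiers are not given in the sources used here. Groups and replicate numbers came from the labels. Values were rounded to whole counts for testing, and 2 reporter rows (4.87e-05% of counts) were left out of totals and tests. Features were filtered with filterByExpr by group (minimum count 10), which kept 17557 (987 are transposable elements). After TMM scaling, counts were fitted in edgeR 4.0.16 (R 4.3.3) by the quasi-likelihood method with 1 mean per group and a common biological coefficient of variation of 0.209. P-values were adjusted by Benjamini-Hochberg over all features tested, and an adjusted p under 0.05 was called. The SE of a log2 fold change was its absolute value divided by the square root of the quasi-likelihood F. It is therefore approximate, above all for features near 0 in the control.

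Ratios of summed counts carry exact conditional binomial 95% intervals. Intervals and the floor of 3 counts cover counting error only, since copies made by PCR cannot be told from separate molecules. All comparisons with wt col-0 share its 8 libraries. Among 98 pairs of replicates, 0 held the same values, and their chi-square divided by its degrees of freedom ran from 2.84 to 128. Alternatives used RLE scaling, no filter, DESeq2 1.42.0, limma 3.58.1 (voom), other control libraries, a replicate block, summed features and single libraries left out. In simulated ddm1 data of 16772 features, 67% of 2-fold and 96% of 8-fold changes were recovered, and 6.86% of calls were false. The simulation gave every feature the same spread and had no difference between replicate sets. The measured libraries are less even, so these rates need not hold for them or for features near 0. Tables were joined in Python 3.11.15 (pandas 2.3.3, scipy 1.17.1) and drawn with matplotlib 3.10.9. Gene names, positions and sequences are from RefSeq assembly TAIR10.1, which matched 28929 of 29696 genes. The members and gene lists were chosen with earlier results of these data known. The genes named are the 4 members, the targeted genes, the nearest annotated gene on each side, for each member the 3 features with the highest correlation, at most 5 called genes per list and contrast, and the partner genes FT and NF-YC4. BNS, IBM1, EPF2, MRD1, MET1, CMT3, the untested imprinted genes and the tissue markers were named from the same lists after their values were seen.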

Additional observations from a re-analysis of the deposited data

Results flagged for a closer look

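The summed level of QQS and AT3TE51150 in wt21 replicate 5 was 1.28 CPM, far from the other 7 libraries of that group relative to their range; 24 combinations of member and group were examined in this way, and chance flags about 1 in 20. The same sum lay above the wt col-0 mean in every ddm1 library and below it in every ago5ago9 library, with a difference in mean level of 37.3 CPM (ddm1 minus ago5ago9). It lay above that mean in every ago4 library as well, at 4.99 CPM over ago5ago9, and in every library labelled ago9, at 2.77 CPM over ago5ago9. These differences between groups were not tested.

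A reporter row for mCherry, left out of the totals, held 44 counts in ddm1, 10 in ago4, 4 in ago9, 39 in ago4ago5ago9, 8 in ago5, 13 in ago5ago9 and 34 in wt21, and 0 in ago4ago9 and wt col-0. The labels name no reporter line.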

How the results depend on the processing

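No member changed its side of the threshold in any of the 441 recomputed values. In ddm1 all 89 stayed called, with a highest adjusted p of 0.0114 (FWA with DESeq2), and log2 fold changes ran from 7.51 to 10.24 for FWA, 6.28 to 7.81 for SDC, 5.75 to 6.27 for QQS and 5.92 to 6.20 for AT3TE51150. In the other comparisons the lowest adjusted p of 352 values was 0.0737. The members had few or no counts in both groups of those comparisons, which leaves little room to cross the threshold. With the replicate block the ddm1 log2 fold changes were 7.68 for FWA, 7.28 for SDC, 6.25 for QQS and 6.20 for AT3TE51150. No pairing by replicate number was seen against wt col-0. There, 20 correlations of same-numbered deviations ran from -0.184 to 0.131, 1 of them over 0.1. Of the 20 libraries, 1 correlated best with its own number. A weak pairing could be missed in this way. None of the members passed the filter in the wild-type libraries alone, so they could not be tested between replicate sets there.

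Counts of features called against wt col-0 moved widely; the cause was not tested. Without the filter they were 28 in ago5, 49 in ago4ago5ago9 and 7 in wt21. Against wt21 they were 6 in ago5, 496 in ago5ago9 and 16 in ago4ago5ago9. With the replicate block they were 3, 79 and 13 in the same groups and 20 in wt21. With wt col-0 replicates 1 to 4 they were 3, 6, 2 and 25, with replicates 5 to 8 they were 1415, 2739, 1538 and 607, and with only the groups compared they were 2, 502, 5 and 0, in ago5, ago5ago9, ago4ago5ago9 and wt21. With voom they were 34 in ago5, 146 in ago4ago5ago9 and 5 in wt21, and with DESeq2 118 in ago5 and 334 in ago4ago5ago9. In alternatives chosen after seeing the data, leaving out the libraries labelled ago9 and ago4ago5ago9 gave 5 in ago5, and wt21 against wt col-0 gave 0 within replicates 1 to 4 and 94 within replicates 5 to 8. The replicate sets differed in 2111 features within wt col-0 and 1188 within wt21. With single libraries left out, counts ran from 3 to 140 in ago5, 270 to 1433 in ago5ago9, 8 to 311 in ago4ago5ago9 and 1 to 9 in wt21. Methylation genes called lower in ddm1 numbered 1 against wt21, and those called higher 2 with wt col-0 replicates 1 to 4 (HDA6 and VIM1, not SUVH5). SUVH4 in ago5ago9 was not called (0 genes) with wt21, the replicate block or wt col-0 replicates 1 to 4.

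Depth limits the low groups: a count of 0 over a group allows 0.0435 to 0.163 CPM.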

Other observations

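The proteins of FWA and QQS have known partners whose RNA was also measured. FT, the flowering signal that FWA protein binds, had 2 counts over the ddm1 libraries and 1 over those of wt col-0, too few to test at this age and tissue. NF-YC4, a subunit of a CCAAT-binding factor bound by QQS protein, averaged 15.4 ± 1.54 CPM in ddm1, against 19.3 ± 10.3 CPM in wt col-0 (edgeR adjusted p = 0.553). That mean covers separate levels: NF-YC4 had 24.9 to 31.9 CPM in wt col-0 replicates 1 to 4 and 6.37 to 12.7 CPM in replicates 5 to 8. Against replicates 1 to 4, a control chosen for this gene after seeing the data, ddm1 (13.8 to 16.9 CPM) was called lower (-0.88 ± 0.18; edgeR adjusted p = 0.000377). In ago5ago9 it averaged 36.9 ± 2.02 CPM and was called higher against all 8 libraries (0.97 ± 0.25; edgeR adjusted p = 0.0146) but not against replicates 1 to 4 (0.37 ± 0.18; edgeR adjusted p = 0.487).

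Of the 7 other methylation-controlled loci tested, only MRD1 was called in ago5, ago5ago9 and ago4ago5ago9. It averaged 3.86 ± 1.44 CPM in ago5, 0.333 ± 0.409 CPM in ago5ago9 and 1.55 ± 1.88 CPM in the libraries labelled ago4ago5ago9, against 53.1 ± 3.30 CPM in wt col-0. The log2 fold changes were -3.75 ± 0.35, -7.02 ± 0.49 and -5.09 ± 0.40 (edgeR adjusted p at most 1.31e-09). MRD1 was also low in ago4ago9 (1.36 ± 1.20 CPM), ago4 (21.7 ± 7.29 CPM) and ago9 (22.04 ± 5.04 CPM), which are given without a test, so low levels were not limited to groups with ago5 in the label. Of the 28 methylation genes tested, SUVH4, the H3 lysine methyltransferase that works with CMT3, was called lower in ago5ago9 (5.27 ± 0.964 CPM, against 8.23 ± 1.63 CPM in wt col-0; -0.64 ± 0.20; edgeR adjusted p = 0.0400) but not with wt21 or wt col-0 replicates 1 to 4 as control, and 0 were called in ago5, ago4ago5ago9 and wt21. All features tested were called at 6.44% in ago5ago9, 0.0911% in ago5, 0.439% in ago4ago5ago9 and 0.0627% in wt21, so the counts among the 28 methylation genes are near the background. The list of loci was chosen with earlier results of these data known, so MRD1 as 1 of 7 loci is not read against those shares. With so few loci tested, that count is given as a description.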
